A study of Sus scrofa with 7 samples.

Results

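The genes of serine synthesis, one-carbon metabolism and the ATF4 stress response were examined in porcine extra-embryonic endoderm (pXEN) cells and in 2 kinds of porcine embryonic stem cells (ESCs). The set was drawn up as 51 gene symbols: the enzymes that make serine and glycine, the folate and methionine cycles, related amino acid synthesis, and the kinases, transcription factors and effectors of the integrated stress response. Of these, 40 were found by gene name among the 29510 genes listed, and 37 passed the filter on low counts and were tested. The 11 symbols not found by name were GLDC, GCAT, MAT2A, ASL and SESN2, which were matched by Ensembl identifier and are described beside the others, and SHMT1, SHMT2, CBS, EIF2AK4, DDIT4 and NUPR1, which were matched by neither.

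RNA was sequenced from 3 pXEN lines at passages 26, 26 and 23, 2 naïve-like ESC (nESC) lines grown to passages 21 and 22, and 2 primed ESC (pESC) lines, both at passage 20, with 1 library per line. The pXEN lines were grown from inner cell masses of parthenogenetic blastocysts, on mouse embryonic fibroblasts, in LCDM medium. This medium held knockout DMEM, serum, serum replacement, MEM non-essential amino acids, Glutamax, LIF, CHIR99021, dimethindene maleate, minocycline and Y27632. The naïve-like ESCs were kept on mouse embryonic fibroblasts in serum replacement and N2B27 media with FGF, LIF, PD0325901, CHIR99021, SB431542 and doxycycline. The primed ESCs, which per the labels had been converted from naïve-like ESCs, were kept on STO feeder cells in α-MEM with serum replacement, non-essential amino acids, insulin-transferrin-selenium, activin A, bFGF, EGF and LIF. Each cell type therefore had a medium of its own, and effects of cell type and medium cannot be told apart in these libraries. Feeder type was shared by pXEN cells and nESCs. It differed for the pESCs, whose comparisons cannot separate it from cell type and medium. The sources do not say whether the lines of a type came from separate animals, so p-values measure the spread between lines.

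Serine is made from a glycolytic intermediate by PHGDH, PSAT1 and PSPH, and its conversion to glycine passes a one-carbon unit to folate. Parallel folate enzymes in mitochondria and cytosol carry that unit to purines, thymidylate and methionine. Many of these genes are targets of ATF4, a transcription factor whose translation rises when kinases such as EIF2AK3 (PERK) phosphorylate the initiation factor eIF2α during amino acid shortage or endoplasmic reticulum stress.

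The libraries held between 10408164 and 12995720 counts. At this depth 3 counts, taken as the floor of detection, were 0.231 to 0.288 CPM (counts scaled to a common total), which covers counting error only. The labelled cell types were checked against marker genes by summed FPKM (fragments per kilobase of gene, scaled to the size of the library). The 8 endoderm markers (GATA4, GATA6, SOX17, HNF4A, IHH, PDGFRA, COL4A2 and LAMB1) summed to between 1969 and 2234 in the pXEN lines, to 21.1 and 25.7 in the nESCs and to 153 and 160.4 in the pESCs. The 6 pluripotency markers summed to between 8.19 and 15.9 in pXEN cells and to between 138 and 359 in the ESCs, although POU5F1 itself was at or below 0.284 in all 7 libraries. NANOG ran against this order and made up most of the pXEN sums, with between 4.50 and 15.5 in pXEN cells against 0 and 0.148 in nESCs and 1.43 and 1.41 in pESCs (adjusted p = 0.000405 and 0.00556). UTF1 was also called higher in pXEN cells than in nESCs (0.256 to 1.71 against 0 and 0.0803, adjusted p = 0.0321), so the sums of the nESCs rest on SOX2 and GBX2. By staining, PCR and Western blotting, the paper reported OCT4 (the product of POU5F1) and NANOG in nESCs and not in pXEN cells. It also reported OCT4 staining in primed ESCs. Why the POU5F1 and NANOG entries differ from this was not tested. The 3 trophoblast markers found of 5 summed to at most 1.10 outside the pESCs, where they reached 41.2 and 38.5. TFAP2C made up most of the pESC sums, at 40.4 and 37.0, with CDX2 at 0.855 and 1.55. ELF5, under the filter on low counts, ran the other way, at 0 in both pESC lines and between 0.282 and 1.10 in pXEN cells. The 7 fibroblast markers found of 8 summed to 246 in pXEN line 2, against 17.4 and 20.4 in lines 1 and 3, 30.5 and 35.8 in the nESCs and 57.3 and 88.3 in the pESCs. COL1A1 and COL3A1 made up most of that sum in pXEN line 2, at 144 and 77.5, and no fibroblast marker found was at 0 in all libraries. The COL1A1 entry covers only 246 bases. TWIST1 and DCN did not have this order. TWIST1 was at 0.192 in pXEN line 2 and between 15.9 and 28.1 in the ESC lines. DCN was at 1.40 in pXEN line 2, against 18.3 and 38.8 in the pESCs. Genes on chromosome Y had 38 counts in pXEN line 2 and between 0 and 11 in the other libraries. The part that these markers play in the results was not tested, so calls that change without line 2 are also given without it. In bulk RNA, fewer cells of a type and less RNA per cell cannot be told apart.

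Primed ESCs held the highest levels of serine synthesis and of ATF5, TRIB3, ASS1 and GNMT, while pXEN cells held the highest levels of GLUL, ASNS, GOT1, PPP1R15A and ATF3 and the lowest levels of the folate enzymes MTHFD1, ALDH1L2 and MTHFD1L and of the threonine enzyme TDH. Against nESCs, 25 of the 37 tested members were called in pXEN cells (edgeR's quasi-likelihood test, Benjamini-Hochberg adjusted p below 0.05 over all genes tested), which is 67.6% of them against 54.5% of all 17447 genes tested. The pXEN cells had 17 of these higher and 8 lower, where 28.3% of all genes were higher and 26.2% lower. Against pESCs, 30 members were called, which is 81.1% against 48.3% of all genes. In pXEN cells 11 of them were higher and 19 were lower, where the shares of all genes were 23.9% and 24.4%. Between the ESC types, 24 members were called, which is 64.9% against 32.2% of all genes, with 19 higher and 5 lower in pESCs, where 19.0% of all genes were higher and 13.3% lower. The median log2 fold change of the tested members was 0.40 for pXEN cells against nESCs, −0.79 against pESCs and 0.74 for pESCs against nESCs, and the medians of all genes tested were 0, −0.01 and 0.01. The 3 comparisons share libraries, so their counts are not independent of each other. Leaving out pXEN line 2 gave 28, 30 and 27 called members in the same order, and the shares of all genes called rose as well, to 60.0%, 55.4% and 43.8%. Leaving out either pESC line lowered the count against pXEN cells to 20, with 4 or 5 members higher in pXEN cells, while the share of all genes called fell to 31.0% or 30.2%.

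**Figure D1:**
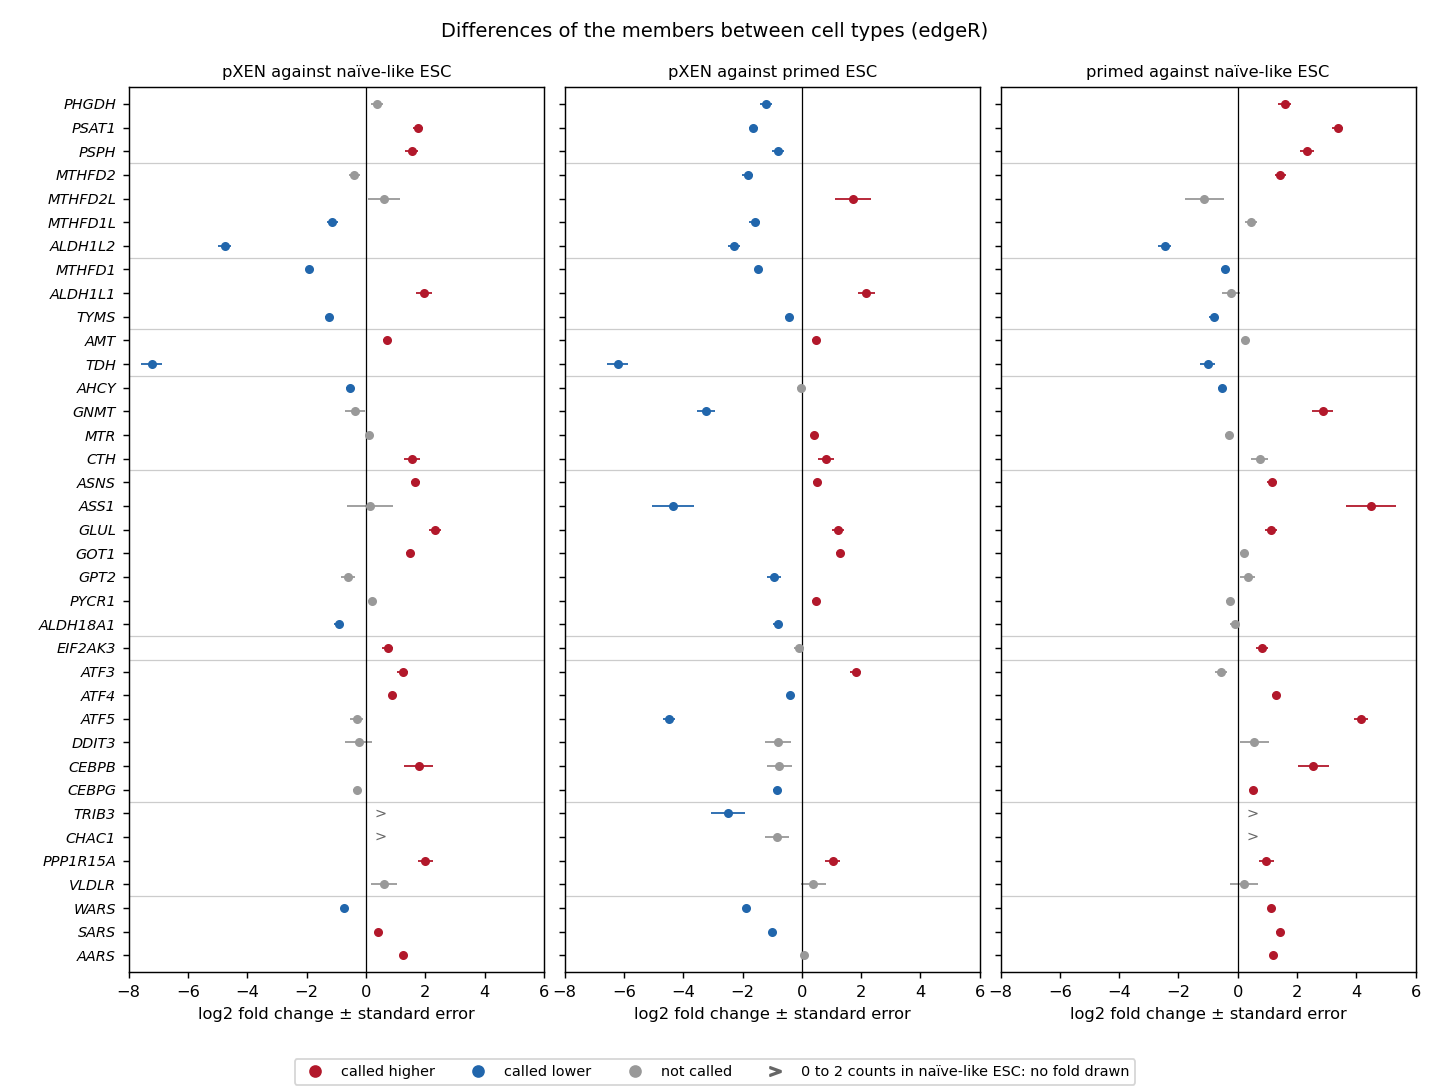
Log2 fold change ± standard error (x axis) from the edgeR fit for each of the 37 tested members (y axis, grouped by branch), in 1 panel for each comparison, with colours for called higher, called lower and not called at an adjusted p of 0.05. Arrow heads mark TRIB3 and CHAC1, which had 0 to 2 counts in nESCs and whose fitted folds against nESCs are not drawn. Most points lie right of 0 for pESCs against nESCs (19 called higher) and left of 0 for pXEN against pESCs (19 called lower).

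The members fell into several orders of the cell types. The share of all genes tested with each order was not counted. The numbers of members therefore do not show whether an order is more common among them than elsewhere. A step from nESCs over pXEN cells to pESCs, with each type called different from the others, was found for 5 members, PSAT1, PSPH, ATF4, SARS and TRIB3. A further 6 members, PHGDH, MTHFD2, GNMT, ASS1, ATF5 and CEBPG, were called higher in pESCs than in both other types and were not called between those. In contrast, 5 members, ALDH1L1, AMT, ATF3, CTH and GOT1, exceeded both ESC types in pXEN cells, each called, and ASNS, GLUL and PPP1R15A were also, with pESCs in turn called above nESCs. The opposite order, with nESCs highest and pXEN cells lowest, was found for ALDH1L2, MTHFD1, TDH and TYMS. MTHFD1L and ALDH18A1 were called lower in pXEN cells than in both ESC types and were not called between those. AARS, CEBPB, CHAC1 and EIF2AK3 were called higher in pXEN cells and in pESCs than in nESCs and were not called between pXEN cells and pESCs. DDIT3 and VLDLR were called in no comparison, and AHCY, GPT2, MTHFD2L, MTR, PYCR1 and WARS had other combinations of calls. The groups did not overlap for any member in a comparison in which it was called, which also held for 99.8%, 99.8% and 100% of all genes called in the 3 comparisons.

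**Figure D2:**
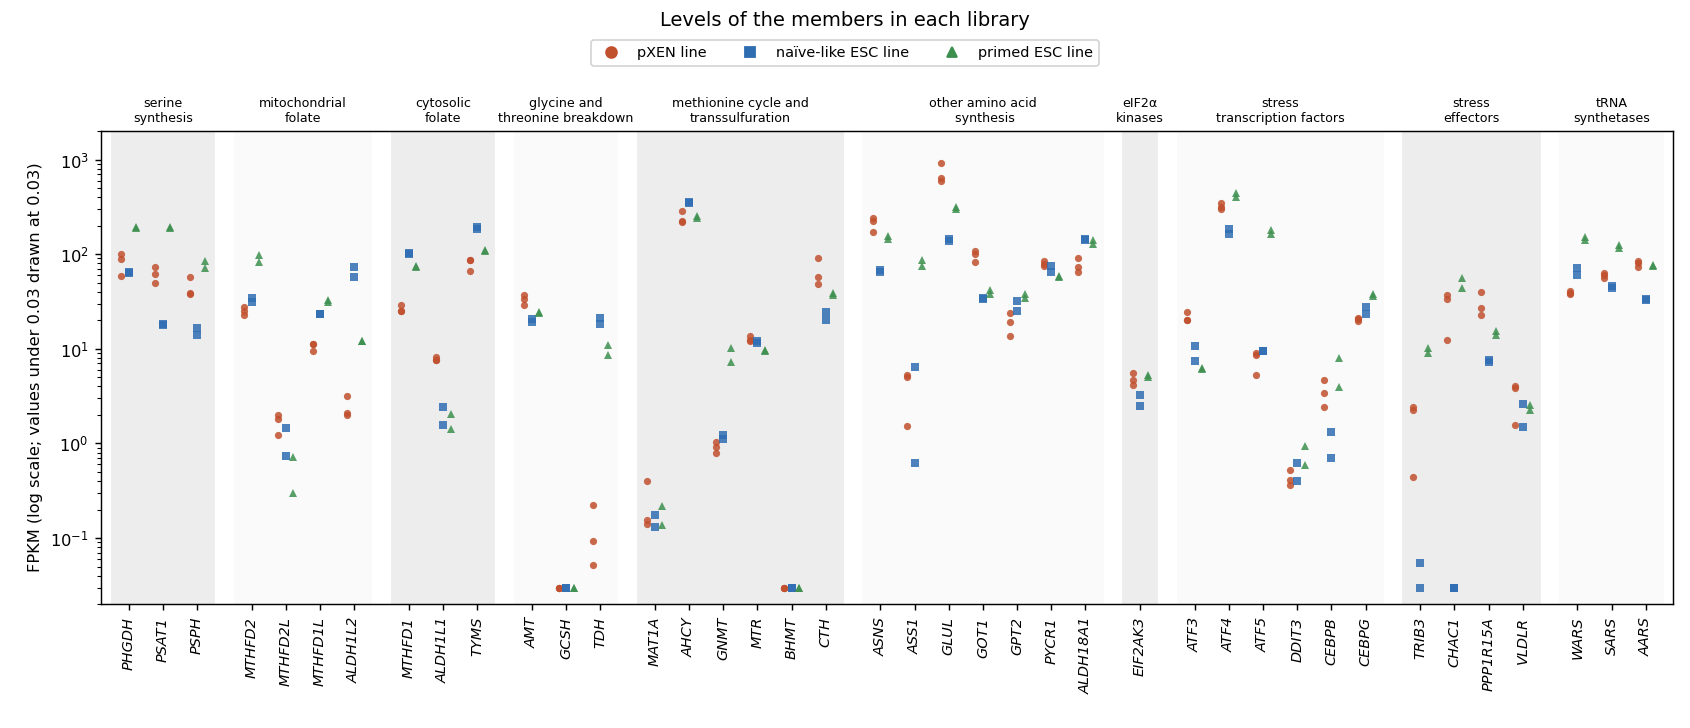
FPKM (y axis, log scale) of the 40 members found by name (x axis, grouped by branch) in every library, with 1 point for each of the 3 pXEN, 2 nESC and 2 pESC lines and values under 0.03 drawn at 0.03. PHGDH, PSAT1 and ATF5 are highest in the pESCs, GLUL, ASNS and ATF3 in the pXEN lines, and TDH lies below 0.3 only in the pXEN lines.

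All 3 enzymes of serine synthesis were highest in pESCs, and PSAT1 and PSPH were also called higher in pXEN cells than in nESCs. PHGDH, the first enzyme (ENSSSCG00000006717, chromosome 4 from 111436317 to 111468486, build Sscrofa10.2), had FPKM of 88.9, 58.6 and 100.0 in pXEN lines 1 to 3, 62.5 and 64.2 in nESCs and 188 and 194 in pESCs. Both pESC lines exceeded all others, and pXEN line 2 was lower than the nESCs. PHGDH was lower in pXEN cells than in pESCs by a log2 fold change of −1.20 ± 0.19 (standard error, as for all fold changes given here, adjusted p = 0.00147), and its difference from nESCs was 0.37 ± 0.20 (adjusted p = 0.149). PSAT1, the second enzyme (ENSSSCG00000005287, chromosome 1 from 257809815 to 257834732), had FPKM of 61.4, 72.4 and 49.8 in pXEN cells, 18.0 and 18.5 in nESCs and 188 and 194 in pESCs. Here the 3 types were fully separate, with pXEN cells in the middle. PSAT1 was higher in pXEN cells than in nESCs by 1.74 ± 0.17 (adjusted p = 8.17e-05) and lower than in pESCs by −1.63 ± 0.15 (adjusted p = 9.96e-05). Between the ESC types, PSAT1 differed by 3.37 ± 0.19 (adjusted p = 2.09e-05), which is the largest difference of the branch. PSPH, the phosphatase that completes the synthesis, had FPKM of 37.6, 57.2 and 38.7 in pXEN cells, 13.8 and 16.5 in nESCs and 71.0 and 84.1 in pESCs. It followed the same order, at 1.55 ± 0.22 (adjusted p = 0.000639) for pXEN cells against nESCs and −0.79 ± 0.20 (adjusted p = 0.0128) against pESCs. Without pXEN line 2, PHGDH was called higher in pXEN cells than in nESCs, at 0.57 (adjusted p = 0.000564), and without pESC line 2 PSPH was not called between pXEN cells and pESCs (−0.67, adjusted p = 0.104).

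Of the mitochondrial folate enzymes found by name, MTHFD2, MTHFD1L and ALDH1L2 were lower in pXEN cells than in pESCs and MTHFD2L was higher. MTHFD2, the mitochondrial dehydrogenase and cyclohydrolase, had FPKM of 25.1, 23.0 and 27.8 in pXEN cells, 34.5 and 31.4 in nESCs and 82.7 and 98.1 in pESCs. All pXEN lines were below the nESCs, and both were far below the pESCs. The difference from pESCs was −1.83 ± 0.18 (adjusted p = 0.000124) and that from nESCs −0.39 ± 0.19 (adjusted p = 0.111). The listed entry covers 291 bases of the gene, and a second entry with a protein description of MTHFD2 gave −1.85 and −0.42, the latter with an adjusted p of 0.0338. The first entry was also called lower than in nESCs with limma (adjusted p = 0.0325 with a pseudocount of 0.1) and with upper-quartile scaling (−0.56, adjusted p = 0.0336). MTHFD2L, its paralogue, was low, with FPKM of 1.22, 2.00 and 1.82 in pXEN cells, 0.743 and 1.46 in nESCs and 0.714 and 0.297 in pESCs. The pXEN cells exceeded pESCs by 1.73 ± 0.60 (adjusted p = 0.0444), and this call was lost on leaving out any of the 7 libraries, with values from 1.23 to 2.46 and adjusted p from 0.0508 to 0.278. It was also lost with DESeq2, with no filter, with upper-quartile scaling and with the replicate block (adjusted p = 0.0807, 0.0619, 0.0525 and 0.149). In FPKM, MTHFD2 exceeded MTHFD2L by between 11.5 and 20.6 times in pXEN cells, by 46.5 and 21.6 times in nESCs and by 116 and 330.1 times in pESCs, and with the second entry of MTHFD2 by between 7.29 and 13.6, by 28.5 and 14.1, and by 75.4 and 200.4 times.

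MTHFD1L, which releases formate from mitochondria, had FPKM of 11.2, 9.45 and 11.3 in pXEN cells, 23.2 and 23.6 in nESCs and 31.5 and 33.0 in pESCs. It was lower in pXEN cells by −1.14 ± 0.19 (adjusted p = 0.00142) against nESCs and −1.59 ± 0.19 (adjusted p = 0.000316) against pESCs. The other entries that carry its protein description were also called lower in both comparisons, at −0.92 and −0.75 and at −1.64 and −1.48. The listed entry was not called between the ESC types (0.45, adjusted p = 0.131), but it was with limma (adjusted p = 0.0321 with a pseudocount of 0.1), and the second entry, which held more counts, was called higher in pESCs than in nESCs (0.73, adjusted p = 0.00272). ALDH1L2, the mitochondrial enzyme that oxidises the one-carbon unit to carbon dioxide (ENSSSCG00000000839, chromosome 5 from 82894882 to 82958376), had FPKM of 2.12, 3.15 and 1.98 in pXEN cells, 73.5 and 57.8 in nESCs and 12.0 and 12.0 in pESCs. The 3 types did not overlap, with pXEN cells lowest and nESCs highest. Its log2 fold change was −4.76 ± 0.21 (adjusted p = 2.22e-06) for pXEN cells against nESCs, −2.29 ± 0.20 (adjusted p = 7.48e-05) against pESCs and −2.47 ± 0.22 (adjusted p = 0.000184) for pESCs against nESCs. ALDH1L2 was the only member of this branch that was called lower in pESCs than in nESCs. SHMT2, the mitochondrial enzyme that splits serine, was not matched by name or identifier. The 2 entries whose protein description is of the SHMT2 type had FPKM between 3.27 and 22.4 and between 0.863 and 16.1. The first was called in no comparison. The second was called higher in pXEN cells than in nESCs (2.55 ± 0.92, adjusted p = 0.0454), with FPKM of 1.87, 16.1 and 4.90 in pXEN cells against 0.863 and 1.75 in nESCs, so that pXEN line 1 lay close to the nESCs. That call was lost without pXEN line 2 (1.37, adjusted p = 0.0812) or nESC line 2 (3.14, adjusted p = 0.108).

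The cytosolic folate enzymes split, with MTHFD1 and TYMS lowest and ALDH1L1 highest in pXEN cells. MTHFD1, the cytosolic enzyme of 3 folate steps in a single protein (ENSSSCG00000002269, chromosome 7 from 94846565 to 94895316), had FPKM of 25.2, 28.7 and 25.2 in pXEN cells, 102 and 99.3 in nESCs and 75.7 and 73.4 in pESCs. The pXEN lines were tightly grouped below all ESC lines. MTHFD1 was lower in pXEN cells by −1.94 ± 0.10 (adjusted p = 3.77e-06) against nESCs and −1.49 ± 0.10 (adjusted p = 2.08e-05) against pESCs. TYMS, thymidylate synthase, had FPKM of 66.8, 86.9 and 87.0 in pXEN cells, 192 and 186 in nESCs and 107 and 112 in pESCs. It was lower in pXEN cells than in nESCs by −1.24 ± 0.14 (adjusted p = 0.000165) and lower in pESCs than in nESCs by −0.80 ± 0.15 (adjusted p = 0.00574), the latter not called without pESC line 1 (−0.77, adjusted p = 0.0554). Its entry covers 492 bases and overlaps ENOSF1 on the opposite strand. ALDH1L1, the cytosolic counterpart of ALDH1L2 (ENSSSCG00000030626, on an unplaced scaffold), had FPKM of 7.62, 8.16 and 7.62 in pXEN cells, 2.43 and 1.58 in nESCs and 2.04 and 1.43 in pESCs. ALDH1L1 was higher in pXEN cells by 1.95 ± 0.28 (adjusted p = 0.000604) against nESCs and 2.17 ± 0.28 (adjusted p = 0.00047) against pESCs, and the ESC types overlapped. The ratio of the mitochondrial to the cytosolic enzyme in FPKM, ALDH1L2 over ALDH1L1, was therefore 0.278, 0.386 and 0.260 in pXEN cells, 30.3 and 36.7 in nESCs and 5.85 and 8.34 in pESCs. The paralogues changed places in pXEN cells, where the cytosolic form was the more abundant in all 3 lines. The ratio of MTHFD1L to MTHFD1 ran the other way, with 0.445, 0.329 and 0.448 in pXEN cells against 0.227 and 0.237 in nESCs, and 0.417 and 0.449 in pESCs, where it overlapped the pXEN values. Its size depended on the entry taken for MTHFD1L, since the listed one covers 515 bases. The second entry gave 0.767, 0.646 and 0.772 in pXEN cells, 0.368 and 0.346 in nESCs and 0.772 and 0.841 in pESCs. The calls of the smaller differences were lost when single libraries were left out. MTHFD1 was not called between the ESC types without any 1 of the 4 ESC libraries (−0.42 to −0.46, adjusted p from 0.0668 to 0.128, against −0.45 and 0.0172 with all), nor was TYMS between pXEN cells and pESCs without pXEN line 1 or any ESC library (−0.32 to −0.47, adjusted p from 0.0533 to 0.154, against −0.44 and 0.0318).

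**Figure D3:**
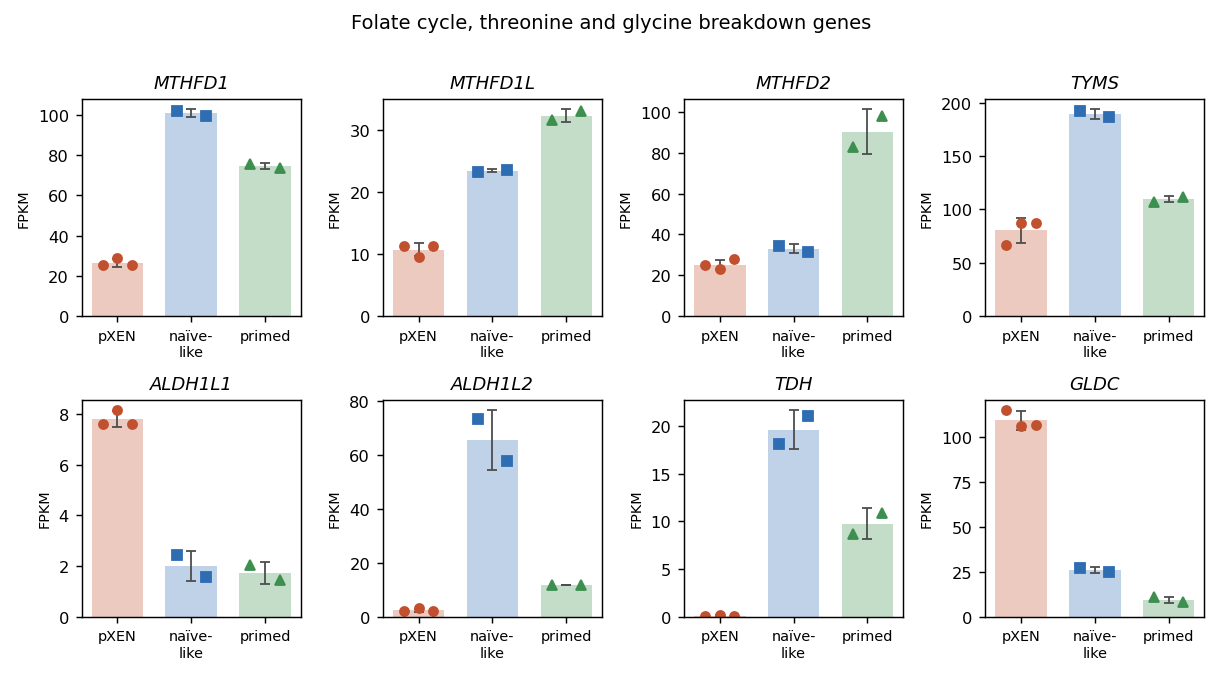
FPKM (y axis, from 0) of 8 folate, threonine and glycine enzymes in pXEN cells, nESCs and pESCs (x axis), with bars for the mean, error bars for the SD over 3, 2 and 2 lines and points for single lines. The pXEN lines are lowest for MTHFD1, MTHFD1L, ALDH1L2 and TDH and highest for ALDH1L1 and GLDC.

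TDH was lower and the glycine cleavage genes AMT and GLDC were higher in pXEN cells than in both ESC types. TDH, which degrades threonine to glycine (ENSSSCG00000021767, on an unplaced scaffold), had 1, 5 and 2 counts in the pXEN lines, 431 and 482 in nESCs and 213 and 288 in pESCs. In FPKM, these were 0.0519, 0.222 and 0.0931 in pXEN cells against 18.2 and 21.1 in nESCs and 8.64 and 10.9 in pESCs. From the summed counts, TDH was 156-fold higher in CPM in nESCs than in pXEN cells (exact 95% interval from 78.6 to 361, counting error only, adjusted p = 2.67e-06) and 77.2-fold higher in pESCs (38.9 to 179.7, adjusted p = 9.2e-06). Most of the pXEN counts came from line 2, and without it the fitted log2 difference of pXEN cells went from −7.23 to −7.96 against nESCs (adjusted p = 3.11e-07) and from −6.21 to −6.95 against pESCs (adjusted p = 1.23e-06). Between the ESC types, its difference of −1.02 ± 0.25 (adjusted p = 0.0179) was not called without any 1 of the 4 ESC libraries (−0.85 to −1.19, adjusted p from 0.0691 to 0.146), nor with limma at a pseudocount of 0.1 (adjusted p = 0.103). AMT, the aminomethyltransferase of the glycine cleavage system, had FPKM of 36.8, 29.3 and 33.5 in pXEN cells, 20.9 and 19.4 in nESCs and 24.3 and 23.9 in pESCs. The pXEN lines exceeded both ESC types, by 0.71 ± 0.13 (adjusted p = 0.00192) against nESCs and 0.47 ± 0.12 (adjusted p = 0.0152) against pESCs, the latter not called without pESC line 1 (0.48, adjusted p = 0.091) or line 2 (0.45, adjusted p = 0.104). GLDC, the glycine decarboxylase of the same system, was matched by identifier only (ENSSSCG00000005199, chromosome 1 from 241060724 to 241084165). Its FPKM were 115, 106 and 106 in pXEN cells, 27.0 and 24.8 in nESCs and 10.7 and 8.29 in pESCs. GLDC was higher in pXEN cells by 2.06 ± 0.14 (adjusted p = 1.18e-05) against nESCs and 3.53 ± 0.15 (adjusted p = 2.93e-06) against pESCs, and a second entry with its protein description gave 1.77 and 3.30. GCSH, the carrier protein of the system, was listed at 0 in all 7 libraries. Its entry covers only 525 bases, and whether it represents the expressed gene was not tested. GCAT, which acts after TDH, was spread over a pair of entries whose FPKM ranged from 0.284 to 9.98 and from 0.496 to 5.19 and was called in no comparison.

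In the methionine cycle, the abundant members differed little and GNMT stood out. AHCY, which hydrolyses S-adenosylhomocysteine, had FPKM of 226, 286 and 217 in pXEN cells, 359 and 348 in nESCs and 241 and 253 in pESCs, with a difference of −0.55 ± 0.13 (adjusted p = 0.00949) between pXEN cells and nESCs. GNMT, which uses S-adenosylmethionine to methylate glycine, had FPKM of 0.926, 0.793 and 1.04 in pXEN cells, 1.13 and 1.24 in nESCs and 10.2 and 7.33 in pESCs. Only the pESCs were above 2, and GNMT was lower in pXEN cells than in pESCs by −3.23 ± 0.31 (adjusted p = 0.000116) and higher in pESCs than in nESCs by 2.87 ± 0.35 (adjusted p = 0.000782). Its gene overlaps PEX6. MTR, methionine synthase, ranged only from 9.44 to 13.6 FPKM over the 7 libraries and was called between pXEN cells and pESCs alone (0.42 ± 0.10, adjusted p = 0.00991). It was also called lower in pESCs than in nESCs without pXEN line 2 (−0.30, adjusted p = 0.0191), with the libraries of these 2 groups alone (adjusted p = 0.0297) and with upper-quartile scaling (−0.39, adjusted p = 0.0212), against −0.30 and 0.0676 in the model of all libraries. MAT2A, the methionine adenosyltransferase of most tissues, was matched by identifier and ranged from 193 to 258. It was called lower in pXEN cells than in pESCs (−0.37 ± 0.09, adjusted p = 0.00828) and higher in pESCs than in nESCs (0.34 ± 0.09, adjusted p = 0.0289). The liver paralogue MAT1A had FPKM of 0.156, 0.401 and 0.140 in pXEN cells, 0.177 and 0.132 in nESCs and 0.219 and 0.137 in pESCs, and was under the filter. BHMT, which remethylates homocysteine with betaine, was listed at 0 in all 7 libraries.

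CTH, which cleaves cystathionine to cysteine, was the transsulfuration gene found. Its FPKM were 56.9, 91.8 and 48.3 in pXEN cells, 20.2 and 24.7 in nESCs and 37.1 and 38.5 in pESCs. All pXEN lines exceeded all ESC lines, by 1.54 ± 0.28 (adjusted p = 0.00203) against nESCs and 0.81 ± 0.27 (adjusted p = 0.0363) against pESCs. The latter call was lost without any 1 of the 4 ESC libraries (0.78 to 0.83, adjusted p from 0.0536 to 0.163), with limma at a pseudocount of 0.1 (adjusted p = 0.0513) and with the libraries of the 2 groups alone (adjusted p = 0.0526). CTH was not called between the ESC types (0.74 ± 0.29, adjusted p = 0.0895), but it was called higher in pESCs without pXEN line 2, with DESeq2, with the 2 groups alone and with the replicate block (0.74 to 0.75, adjusted p = 0.00307, 0.0447, 0.00499 and 0.0273). Without pXEN line 2, which held the highest level, the differences of pXEN cells were 1.22 (adjusted p = 0.000101) and 0.48 (adjusted p = 0.0154). The call of AHCY between pXEN cells and nESCs was lost without nESC line 1 (−0.54, adjusted p = 0.0559) and that of MTR without pESC line 1 (0.39, adjusted p = 0.0916) or line 2 (0.43, adjusted p = 0.0713). AHCY was also lower in pESCs than in nESCs, by −0.53 ± 0.15 (adjusted p = 0.0285), which was lost without any 1 of the 4 ESC libraries (−0.49 to −0.56, adjusted p from 0.0941 to 0.158).

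Among the other amino acid enzymes, glutamine and asparagine synthesis were highest in pXEN cells and the urea cycle enzyme ASS1 in pESCs. GLUL, glutamine synthetase, was the most abundant member in pXEN cells, with FPKM of 634, 909 and 591 against 137 and 144 in nESCs and 299.8 and 315 in pESCs. Its level in pXEN cells was higher by 2.33 ± 0.20 (adjusted p = 4.27e-05) against nESCs and 1.22 ± 0.19 (adjusted p = 0.00125) against pESCs, with all 3 lines above both ESC types. ASNS, asparagine synthetase, had FPKM of 223, 171 and 241 in pXEN cells, 68.5 and 65.0 in nESCs and 143 and 155 in pESCs. Its difference of 1.66 ± 0.15 (adjusted p = 6.48e-05) from nESCs was larger than that of 0.51 ± 0.15 (adjusted p = 0.0219) from pESCs. The smaller of these was not called without pXEN line 1, pXEN line 3 or either pESC line (0.41 to 0.56, adjusted p from 0.0566 to 0.147), nor with the replicate number as a block (0.40, adjusted p = 0.0749). GOT1, the cytosolic aspartate transaminase, had FPKM of 99.3, 82.3 and 108 in pXEN cells, 33.5 and 34.6 in nESCs and 37.6 and 41.8 in pESCs. All pXEN lines exceeded all ESC lines, by 1.49 ± 0.14 (adjusted p = 5.73e-05) and 1.29 ± 0.13 (adjusted p = 0.000169), and the ESC types were not called different (0.21, adjusted p = 0.311).

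ASS1, argininosuccinate synthetase (ENSSSCG00000005701, chromosome 1 from 304454129 to 304508998), had FPKM of 5.08, 1.52 and 5.29 in pXEN cells, 0.619 and 6.47 in nESCs and 74.8 and 85.8 in pESCs. Only the pESCs were high, and the nESC lines differed widely from each other. ASS1 was lower in pXEN cells than in pESCs by −4.34 ± 0.71 (adjusted p = 0.00154) and higher in pESCs than in nESCs by 4.49 ± 0.84 (adjusted p = 0.00527). The size of the latter depended on the nESC line, with 3.61 (adjusted p = 0.0119) without nESC line 1 and 6.996 (adjusted p = 0.00268) without line 2. Against nESCs, the difference of 0.15 ± 0.78 (adjusted p = 0.89) became 2.65 (adjusted p = 0.0379) without nESC line 2 and −0.74 (adjusted p = 0.323) without line 1. ASL, the next enzyme after ASS1, was matched by identifier and had another order, with FPKM of 42.1, 47.6 and 35.3 in pXEN cells, 4.83 and 4.21 in nESCs and 20.5 and 18.8 in pESCs. ASL was higher in pXEN cells by 3.20 ± 0.19 (adjusted p = 6.34e-06) against nESCs and 1.10 ± 0.16 (adjusted p = 0.000968) against pESCs. Of the enzymes of proline and alanine synthesis, no called change reached a log2 fold change of 1 with all libraries. Without pXEN line 2, ALDH18A1 reached −1.08 against nESCs (adjusted p = 1.37e-05) and GPT2 reached −1.14 against pESCs (adjusted p = 0.00105). ALDH18A1, the first enzyme of proline synthesis, was lower in pXEN cells (64.4 to 91.6 FPKM) than in all ESC lines (129 to 145), by −0.92 ± 0.15 (adjusted p = 0.00129) and −0.81 ± 0.15 (adjusted p = 0.00301). PYCR1, the last enzyme of that path, ranged from 57.5 to 85.4 and GPT2, the mitochondrial alanine transaminase, from 13.5 to 38.4, and both were called between pXEN cells and pESCs alone (0.47 and −0.93, adjusted p = 0.015 and 0.0115). The call of PYCR1 was lost without pESC line 1 (0.47, adjusted p = 0.0879) or line 2 (0.45, adjusted p = 0.105), and that of GPT2 without line 1 (−0.86, adjusted p = 0.0763). Without pXEN line 2, GPT2 was also called lower than in nESCs (−0.80, adjusted p = 0.00623), as it was with DESeq2, with a filter of 10 counts in every library and with upper-quartile scaling (adjusted p = 0.0463, 0.0482 and 0.0198).

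The stress transcription factors did not share 1 order of the cell types. ATF4, the central factor (ENSSSCG00000000084, chromosome 5 from 6042582 to 6044659), had FPKM of 315, 297 and 349 in pXEN cells, 182 and 164 in nESCs and 406 and 442 in pESCs. The types were separate in the order nESCs, pXEN cells, pESCs, as for PSAT1 and PSPH. ATF4 was higher in pXEN cells than in nESCs by 0.88 ± 0.11 (adjusted p = 0.000327), lower than in pESCs by −0.40 ± 0.11 (adjusted p = 0.0163) and higher in pESCs than in nESCs by 1.28 ± 0.12 (adjusted p = 0.000218). ATF5, a related factor (ENSSSCG00000003201, chromosome 6 from 50728147 to 50731295), had FPKM of 8.56, 5.32 and 9.09 in pXEN cells, 9.37 and 9.57 in nESCs and 165 and 179 in pESCs. It was high in pESCs alone, with −4.48 ± 0.20 (adjusted p = 3.81e-06) for pXEN cells against pESCs and 4.17 ± 0.24 (adjusted p = 2.26e-05) between the ESC types. ATF3 was highest in pXEN cells, with FPKM of 20.1, 24.5 and 20.2 in pXEN cells, 10.8 and 7.45 in nESCs and 6.13 and 6.23 in pESCs. It was higher in pXEN cells by 1.24 ± 0.19 (adjusted p = 0.000906) against nESCs and 1.81 ± 0.20 (adjusted p = 0.000197) against pESCs. Without pXEN line 2, ATF3 was also called lower in pESCs than in nESCs (−0.57, adjusted p = 0.0329), as it was without nESC line 2 (−0.81, adjusted p = 0.0326) and with upper-quartile scaling (−0.66, adjusted p = 0.0367).

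CEBPB, a partner of ATF4 on its target sites, had FPKM of 2.45, 4.64 and 3.41 in pXEN cells, 1.31 and 0.708 in nESCs and 3.93 and 8.07 in pESCs, in the more abundant of its pair of entries. It was higher than in nESCs in pXEN cells by 1.79 ± 0.49 (adjusted p = 0.0155) and in pESCs by 2.55 ± 0.52 (adjusted p = 0.00787). CEBPG, another such partner, ranged from 19.7 to 27.7 in pXEN cells and nESCs and reached 37.9 and 35.7 in pESCs. DDIT3 (CHOP), the factor tied to cell death under prolonged stress, stayed between 0.366 and 0.943 FPKM in all 7 libraries and was called in no comparison, and it overlaps an unnamed gene on the opposite strand. EIF2AK3, the endoplasmic reticulum stress kinase, had FPKM between 4.14 and 5.53 in pXEN cells, 2.51 and 3.24 in nESCs and 5.23 and 5.04 in pESCs. It was higher than in nESCs in pXEN cells by 0.73 ± 0.19 (adjusted p = 0.0109) and in pESCs by 0.82 ± 0.20 (adjusted p = 0.016). Several of these calls were lost when single lines were left out. ATF4 was not called between pXEN cells and pESCs without pXEN line 1 or either pESC line (−0.34 to −0.46, adjusted p from 0.0524 to 0.127), CEBPB was not called between pXEN cells and nESCs without nESC line 2 (1.41, adjusted p = 0.105) nor between the ESC types without nESC line 2 (2.18, adjusted p = 0.0561) or pESC line 2 (1.95, adjusted p = 0.0582), and EIF2AK3 was not called between pXEN cells and nESCs without nESC line 1 (0.54, adjusted p = 0.0977). Between the ESC types, the calls of EIF2AK3 (0.64 to 0.85, adjusted p from 0.0743 to 0.114) and CEBPG (0.39 to 0.56, adjusted p from 0.0891 to 0.15) were lost without nESC line 1 or either pESC line, and without nESC line 1 CEBPG was called lower in pXEN cells than in nESCs (−0.45, adjusted p = 0.0485), as it was with upper-quartile scaling (−0.49, adjusted p = 0.0127) and limma (adjusted p = 0.0477 with a pseudocount of 0.1).

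CHAC1 and TRIB3, both activated through ATF4, were under the floor of 3 counts in both nESC libraries. CHAC1, which degrades glutathione (ENSSSCG00000004754, chromosome 1 from 145522853 to 145525603), had 552, 217 and 557 counts in pXEN cells, 0 and 0 in nESCs and 829 and 1127 in pESCs. Against the floor of 3 counts in each nESC library, pXEN cells exceeded nESCs at least 165-fold, with an adjusted p of 0.000174, and the lowest pXEN line exceeded them at least 73.5-fold. In pESCs it was at least 293-fold higher than in nESCs (adjusted p = 0.000352). TRIB3, a pseudokinase that restrains ATF4 (ENSSSCG00000007208, chromosome 17 from 39529696 to 39602957), had 75, 16 and 79 counts in pXEN cells, 0 and 2 in nESCs and 365 and 434 in pESCs. In CPM it was 62.4-fold higher in pXEN cells than in nESCs (exact 95% interval from 17.0 to 519, counting error only, adjusted p = 0.00276) and 361-fold higher in pESCs (99.6 to 2987, adjusted p = 0.000937). Both ratios rest on the 2 counts of nESC line 2, and both calls held without nESC line 1 (4.86 and 7.38 on the log2 scale, adjusted p = 0.028 and 0.0129) and without line 2 (adjusted p = 0.016 and 0.00901). pXEN line 2 was the lowest of the pXEN lines for both genes. Against pESCs, CHAC1 differed by −0.83 ± 0.41 (adjusted p = 0.137) and TRIB3 by −2.50 ± 0.57 (adjusted p = 0.00766). Without pXEN line 2, CHAC1 was called lower in pXEN cells than in pESCs (−0.48, adjusted p = 0.0269), and without pESC line 2 TRIB3 was not (−2.43, adjusted p = 0.0525). TRIB3 overlaps TBC1D20 on the same strand and RBCK1, so its counts may be incomplete.

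PPP1R15A (GADD34), the phosphatase subunit that reverses eIF2α phosphorylation, was in contrast highest in pXEN cells. Its FPKM were 22.6, 40.1 and 26.9 in pXEN cells, 7.71 and 7.17 in nESCs and 14.0 and 15.4 in pESCs. The types were fully separate. It was higher in pXEN cells by 2.00 ± 0.25 (adjusted p = 0.000326) against nESCs and 1.03 ± 0.24 (adjusted p = 0.00809) against pESCs, the latter not called without pESC line 1 (0.96, adjusted p = 0.0691). Between the ESC types, its difference of 0.97 ± 0.26 (adjusted p = 0.0247) was not called without any 1 of the 4 ESC libraries (0.90 to 1.04, adjusted p from 0.0794 to 0.121). VLDLR, a lipoprotein receptor, had FPKM between 1.50 and 4.04 and was called only without pXEN line 2, as higher in pXEN cells than in nESCs (0.94, adjusted p = 0.0194). SESN2, an inhibitor of mTORC1 signalling that was matched by identifier, was lower in pXEN cells, with FPKM of 15.1, 21.5 and 13.7 against 28.1 and 29.5 in nESCs and 26.3 and 24.3 in pESCs. Its differences were −0.78 ± 0.19 (adjusted p = 0.00825) and −0.58 ± 0.19 (adjusted p = 0.0335).

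**Figure D4:**
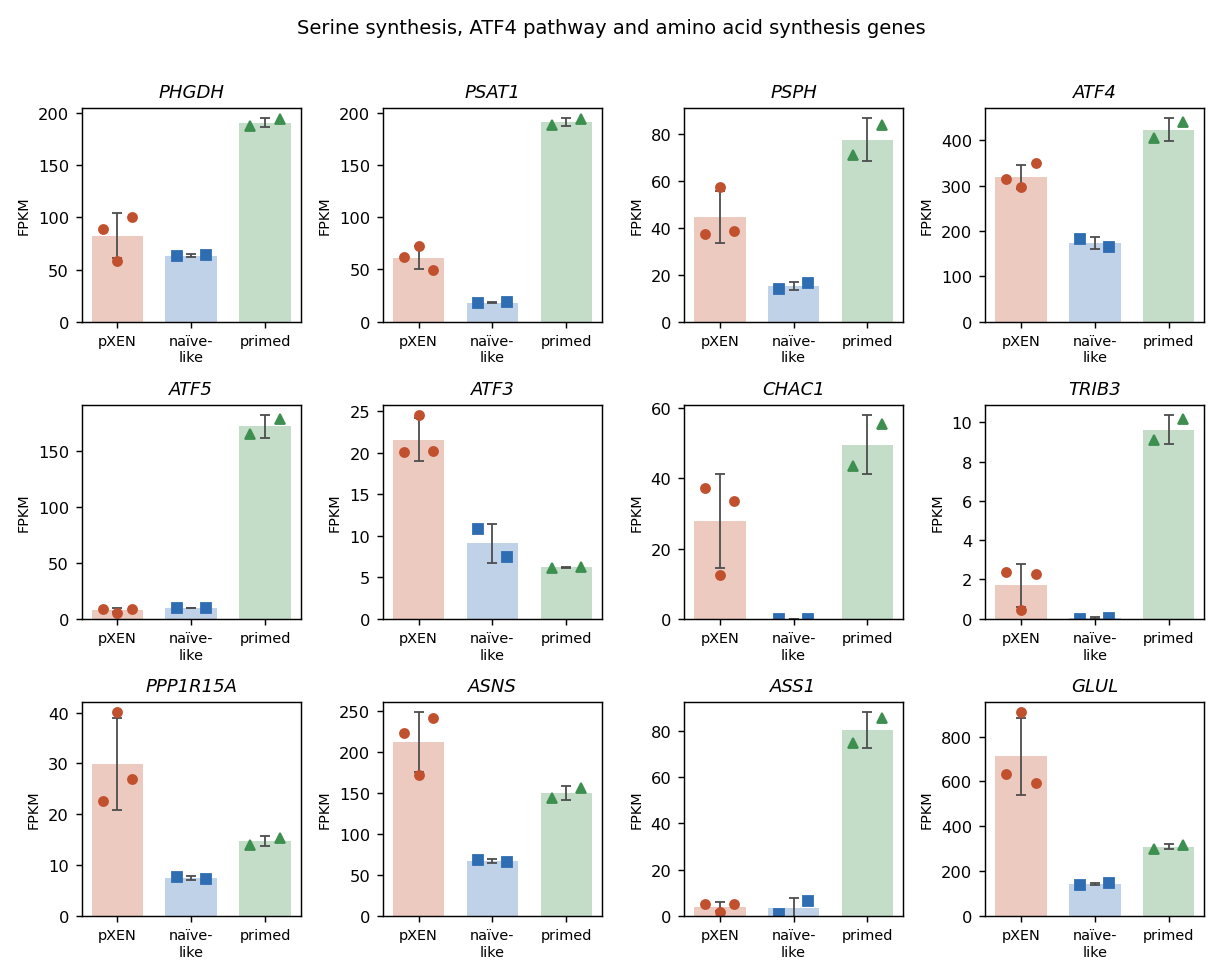
FPKM (y axis, from 0) of 12 members in pXEN cells, nESCs and pESCs (x axis), with bars for the mean, error bars for the SD over 3, 2 and 2 lines and points for single lines. The points of PSAT1, PSPH and ATF4 rise from nESCs over pXEN cells to pESCs, ATF5 and ASS1 are high in pESCs alone, and ATF3, PPP1R15A, ASNS and GLUL are highest in pXEN cells.

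The aminoacyl-tRNA synthetases SARS, WARS and AARS, which charge tRNAs with serine, tryptophan and alanine, were all higher in pESCs than in nESCs, by 1.41 ± 0.11 (adjusted p = 9.17e-05), 1.13 ± 0.12 (adjusted p = 0.000406) and 1.18 ± 0.11 (adjusted p = 0.000206). Their positions in pXEN cells differed. AARS had FPKM of 81.4, 72.3 and 84.3 in pXEN cells, 32.7 and 33.5 in nESCs and 75.6 and 76.4 in pESCs. Its level in pXEN cells overlapped that of pESCs and exceeded that of nESCs by 1.25 ± 0.10 (adjusted p = 3.42e-05). SARS had FPKM of 60.3, 63.2 and 56.2 in pXEN cells, 44.2 and 46.2 in nESCs and 118 and 126 in pESCs. It was lower in pXEN cells than in pESCs by −1.01 ± 0.10 (adjusted p = 0.000115) and higher than in nESCs by 0.40 ± 0.10 (adjusted p = 0.0104). The latter call was lost without nESC line 1 (0.36, adjusted p = 0.0832) and with upper-quartile scaling (0.23, adjusted p = 0.0657). WARS had FPKM of 39.1, 40.6 and 38.2 in pXEN cells, 71.6 and 60.0 in nESCs and 141 and 151 in pESCs. It was the only 1 of the 3 that was lowest in pXEN cells, by −0.75 ± 0.11 (adjusted p = 0.000727) against nESCs and −1.88 ± 0.11 (adjusted p = 1.02e-05) against pESCs.

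Companion lists of the same pathways are given by their counts, beside the shares of all genes tested that were called, which were 54.5% for pXEN cells against nESCs, 48.3% against pESCs and 32.2% between the ESC types. Of 14 other tRNA synthetases tested, 3 were higher and 7 lower in pXEN cells than in nESCs, 8 were called against pESCs, each of them lower in pXEN cells, and 7 were higher and 1 lower in pESCs than in nESCs. These calls made up 71.4%, 57.1% and 57.1% of the list, with median log2 fold changes of −0.18, −0.47 and 0.20. The lower share against pESCs compares with 24.4% of all genes that were lower there. FARSA and RARS, for phenylalanine and arginine, were lower than in nESCs by −0.87 and −0.80 (adjusted p = 0.000242 and 0.00228), and CARS, for cysteine, was higher by 0.78 (adjusted p = 0.000604). Of 6 other ATF4 targets tested, 3 were higher and 2 lower in pXEN cells than in nESCs, 1 was higher and 4 were lower than in pESCs, and 3 were higher and 1 lower in pESCs than in nESCs, which is 83.3%, 83.3% and 66.7% of so short a list (medians of 0.59, −0.87 and 1.04). PCK2, the mitochondrial PEP carboxykinase, had FPKM of 50.0, 41.3 and 42.3 in pXEN cells, 15.2 and 15.5 in nESCs and 155 and 154 in pESCs, the same order as PSAT1. STC2, a secreted glycoprotein, also followed that order, with 14.6, 1.96 and 16.6, then 1.03 and 0.844, then 53.7 and 60.2 FPKM, and pXEN line 2 was low for it. FGF21, a secreted metabolic hormone, was found in pXEN cells, with 31, 30 and 50 counts against 2 and 0 in nESCs and 2 and 4 in pESCs. It was 40.7-fold higher in CPM in pXEN cells than in nESCs (exact 95% interval from 11.0 to 340.4, counting error only, adjusted p = 0.00119). The ratio rests on the 2 counts of nESC line 1, and the call held without that line (adjusted p = 0.00332) and without nESC line 2 (4.29 on the log2 scale, adjusted p = 0.00786).

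Of 11 genes of the endoplasmic reticulum unfolded protein response, 8 were higher and 2 lower in pXEN cells than in nESCs, 2 were higher and 7 lower than in pESCs, and 8 were higher and 1 lower in pESCs than in nESCs. Called genes were thus 90.9%, 81.8% and 81.8% of the list, against 54.5%, 48.3% and 32.2% of all genes, and the higher ones against nESCs compare with 28.3% of all genes that were higher in pXEN cells and 19.0% in pESCs (medians of the list 0.94, −0.73 and 1.55). XBP1, its transcription factor, and PDIA4 and SDF2L1, which act in protein folding, were higher than in nESCs by 2.62, 1.86 and 1.70 (adjusted p = 4.56e-06, 3.2e-06 and 0.00456). The 8 genes of eIF2, its other kinases and its exchange factor eIF2B had 5 members that were lower in pXEN cells than in nESCs and 5 that were lower than in pESCs, with the others not called, and 1 higher and 1 lower in pESCs than in nESCs. This is 62.5%, 62.5% and 25% of the list, where 26.2% of all genes were lower against nESCs and 24.4% against pESCs (medians of −0.76, −0.58 and −0.12). The eIF2B subunits EIF2B1, EIF2B4 and EIF2B3 led, at −1.88, −0.95 and −0.78 against nESCs (adjusted p = 8.86e-05, 0.0179 and 0.00115).

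Of 8 amino acid transporters, 4 were higher and 3 lower in pXEN cells than in nESCs, 1 was higher and 5 were lower than in pESCs, and 7 were higher in pESCs than in nESCs, with the other 1 not called. The called shares were 87.5%, 75% and 87.5%, against 54.5%, 48.3% and 32.2% of all genes (medians of 0.73, −1.39 and 1.34). SLC7A3, a carrier of cationic amino acids, had 1, 2 and 3 counts in pXEN cells, 100 and 115 in nESCs and 1083 and 1278 in pESCs. In CPM it was 48.8-fold higher in nESCs than in pXEN cells (exact 95% interval from 22.1 to 135, counting error only, adjusted p = 3.28e-06). SLC7A11, the cystine and glutamate exchanger, had 29, 15 and 29 counts in pXEN cells, 2 and 3 in nESCs and 112 and 146 in pESCs, and was higher in pXEN cells than in nESCs (10.7-fold in CPM, exact 95% interval from 4.39 to 34.0, adjusted p = 0.00148). SLC38A1, a glutamine carrier, was lower in pXEN cells than in nESCs by −2.10 ± 0.21 (adjusted p = 9.35e-05). Of 10 folate carriers and folate users, 3 were higher and 3 lower in pXEN cells than in nESCs, 4 were higher and 2 lower than in pESCs, and 2 were higher and 2 lower in pESCs than in nESCs. At 60%, 60% and 40% called, this list lay near the shares of all genes (medians of 0.19, −0.04 and −0.13). FPGS, which traps folates in cells, was higher in pXEN cells than in nESCs by 1.06 (adjusted p = 0.0092), and GART, of purine synthesis, was lower by −0.74 (adjusted p = 0.000735). Of 8 genes of methionine salvage and polyamine synthesis, 2 were higher and 3 lower in pXEN cells than in nESCs, 3 were higher and 3 lower than in pESCs, and 3 were lower in pESCs than in nESCs, with the others not called. Its called shares were 62.5%, 75% and 37.5%, the last of them lower genes alone, where 13.3% of all genes were lower (medians of −0.05, 0.09 and −0.21). MTRR, which reactivates methionine synthase, and ODC1 and SRM, of polyamine synthesis, were lower in pXEN cells than in nESCs by −1.45, −1.31 and −1.08 (adjusted p = 0.0003, 3.74e-05 and 0.000447).

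The members varied among the pXEN lines about as much as other genes did. The highest pXEN line exceeded the lowest by more than 2 times for 4 of the 36 members with a mean of at least 10 counts in pXEN cells, ASS1, CHAC1, TRIB3 and VLDLR, against 18.0% of 15027 genes, and the median of this ratio was 1.37 for the members and 1.37 for those genes. In each of these 4 members, line 2 was the low one. The ratio of its FPKM to the mean of lines 1 and 3 was 0.188 for TRIB3, 0.294 for ASS1, 0.354 for CHAC1, 0.393 for VLDLR, 0.603 for ATF5, 0.620 for PHGDH and 0.737 for ASNS. In the other direction it was 1.74 for CTH, 1.62 for PPP1R15A, 1.58 for CEBPB, 1.53 for ALDH1L2, 1.50 for PSPH and 1.48 for GLUL. Without line 2, the last 5 kept their calls against nESCs, at 1.73 for PPP1R15A (adjusted p = 1.11e-05), 1.53 for CEBPB (adjusted p = 0.0225), −5.01 for ALDH1L2 (adjusted p = 4.44e-08), 1.32 for PSPH (adjusted p = 4.97e-05) and 2.12 for GLUL (adjusted p = 1.74e-07). Against pESCs, they were 0.76 for PPP1R15A, −2.54 for ALDH1L2, −1.02 for PSPH and 1 for GLUL, each called, and −1.02 for CEBPB (adjusted p = 0.0714). ATF4 itself differed little in line 2, at 297 FPKM against 315 and 349. The fibroblast markers of line 2 summed to 246, against 17.4 and 20.4 in lines 1 and 3, and their part in these differences was not tested.

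**Figure D5:**
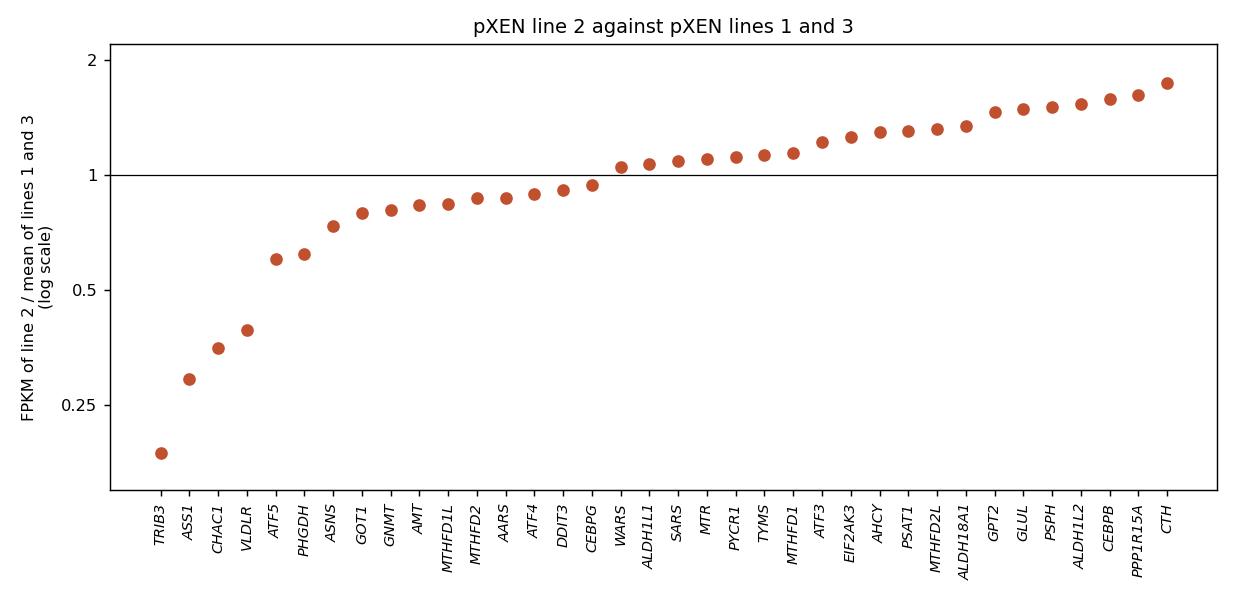
Ratio of the FPKM in pXEN line 2 to the mean of pXEN lines 1 and 3 (y axis, log scale) for the 36 members with a mean of at least 10 counts in pXEN cells (x axis, in order of the ratio), with 1 point per member. TRIB3, ASS1, CHAC1 and VLDLR lie lowest, between 0.188 and 0.393, and CTH highest at 1.74.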

How the data were processed

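The authors deposited, for 29510 genes in 7 libraries, the counts of reads per gene without normalization, and an FPKM table, which equals the counts divided by listed gene length and 1 total per library. Per the submitters' notes, reads were aligned to Sscrofa10.2 with HISAT2 2.0.5 and counted with featureCounts 1.5.0-p3, and edgeR 3.22.5 is named. The libraries were directional and rRNA-depleted. Here the counts were tested in R 4.3.3 with edgeR 4.0.16 (quasi-likelihood test, TMM, filterByExpr, Benjamini-Hochberg adjustment over 17447 genes, adjusted p below 0.05) in 1 model of all 7 libraries, checked on simulated data. Standard errors are the log2 fold change over the root of F. Levels are FPKM. The biological coefficient of variation was 0.223. Alternatives used limma 3.58.1 and DESeq2 1.42.0.

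Of symbols with several entries (CEBPB, WARS, BHMT), that with most counts was taken. Values in every library are given for members called with an absolute log2 fold change of at least 1 in any comparison, members under the filter and their paralogues. From companion lists, the 3 called genes with the largest change between pXEN cells and naïve-like ESCs are named. Members and lists were chosen with earlier results of these data known. A planned search of promoters for an ATF4 motif was not run, because no promoter sequences were used here. A gene of the list of folate carriers and folate users is included in the counts of that list, and its own values are not reported here.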

Additional observations from a re-analysis of the deposited data

How the results depend on the processing

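The counts of members called stayed within 1.5 times of the values given under other normalizations, filters and tools (edgeR with other size factors, DESeq2, limma, fits of 2 groups), and when genes matched by identifier were added or entries of a symbol summed, both chosen after seeing the data. Leaving out a library, after which a lone line is assumed to vary like the others, gave 4 to 10 members called higher in pXEN cells than in primed ESCs (11 with all) and 1 to 7 called lower in primed than in naïve-like ESCs (5 with all).

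The replicate numbers of the labels were taken as names only, since the deviations of libraries of the same number correlated at −0.0106 to 0.0599. With this replicate block, 25, 28 and 24 members were called for pXEN against naïve-like, pXEN against primed and primed against naïve-like ESCs. Only pXEN cells had a line 3, so with the block their differences rest on the other pXEN lines. Changes with the block therefore also reflect the loss of that line. MTHFD2L (1.62, adjusted p = 0.149) and ASNS (0.40, adjusted p = 0.0749) were then not called between pXEN cells and primed ESCs, nor CEBPG between the ESC types (0.52, adjusted p = 0.0584), and CTH was called between them (0.75, adjusted p = 0.0273), as it also was with DESeq2, with the 2 groups alone and without pXEN line 2.

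The sign changed only for differences that were not called. With upper-quartile scaling, which moved the medians of all genes to −0.16, −0.09 and −0.06, these were MTR (−0.056) and ASS1 (−0.019) for pXEN against naïve-like ESCs and AARS (−0.011) for pXEN against primed ESCs. AHCY between pXEN cells and primed ESCs became 0.057 with the block. Over the fits that left out 1 library, AHCY ranged from −0.15 to 0.067 and EIF2AK3 from −0.21 to 0.0032 for pXEN against primed ESCs, ASS1 from −0.74 to 2.65 and DDIT3 from −0.53 to 0.092 for pXEN against naïve-like ESCs, and ALDH1L1 from −0.49 to 0.12 and VLDLR from −0.12 to 0.67 for primed against naïve-like ESCs. The causes were not tested. Depth limits MTHFD2L, MAT1A, TDH, TRIB3 and CHAC1, which had few or no counts in at least 1 cell type.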

Other observations

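FOLR1, a folate receptor, was named after its values were seen. It had FPKM of 96.7 and 87.8 in primed ESCs and between 0.357 and 4.72 in the other libraries, and was higher in primed than in naïve-like ESCs by 6.76 ± 0.74 on the log2 scale (adjusted p = 0.000443), which was 7.95 (adjusted p = 0.00532) without naïve-like line 1 and 6.14 (adjusted p = 0.00634) without line 2. The highest value outside the primed ESCs was that of pXEN line 2, at 4.72 against 1.27 and 0.855 in pXEN lines 1 and 3. HSPA5, the main chaperone of the endoplasmic reticulum, was also named after its values were seen. Its FPKM were 420.4, 465 and 404 in pXEN cells, 142 and 143 in naïve-like ESCs and 699 and 733 in primed ESCs, the same order as for PSAT1, PSPH and ATF4. EIF2AK4 was matched by protein description alone, in an entry of 752 bases whose FPKM lay between 5.42 and 11.9 and that was called in no comparison.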
